A study of Mus musculus with 3 samples.

Results

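The cells described here carried at least 3 transcripts of Mki67 and at least 3 of Top2a, and are called positive cells below. They were chosen by these counts alone, among cells that held 20 or more panel transcripts and measured between 50 µm3 and 3 section medians in volume. They numbered 25800 of 1747403 kept cells: 13969 of 619770 in tumour 1, 5823 of 453995 in tumour 2 and 6008 of 673638 in tumour 3. The sections came from 3 distinct mammary tumours of the MMTV-PyMT model, fixed in formalin and embedded in paraffin, and transcripts were imaged in place on the MERSCOPE platform. In this model the mouse mammary tumour virus promoter drives the polyoma middle T oncogene in mammary epithelium. The tumours formed 1 group labelled WT, a term the sources used here do not explain, with no treatment, no stated age and no control tissue. Whether the tumours came from separate mice is not stated, so spreads and p-values refer to variation between these 3 sections.

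Mki67 encodes Ki-67, a protein that coats mitotic chromosomes and is made in all phases of the cell cycle but not in resting cells. Top2a encodes topoisomerase II alpha, which untangles DNA after replication and accumulates towards mitosis, so cells rich in both transcripts are commonly read as cycling. In mammary tumours Ki-67 is the usual histological measure of the proliferating share.

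Both genes lie on the minus strand, Mki67 at chr7:135689784-135716450 and Top2a at chr11:98992947-99024199 of GRCm38.p6. Their promoters are shown because promoters of genes switched on late in the cycle are known for CCAAT boxes, bound by NF-Y, and for cell cycle homology regions (TTTGAA or TTCGAA). The RefSeq promoter table of that build gives 250 bases before to 50 after a start site of each gene, at chr7:135716330-135716629 and chr11:99024140-99024439. Capitals mark exact matches of these 3 motifs on either strand, written 5′ to 3′ on the gene's strand.
Mki67 promoter: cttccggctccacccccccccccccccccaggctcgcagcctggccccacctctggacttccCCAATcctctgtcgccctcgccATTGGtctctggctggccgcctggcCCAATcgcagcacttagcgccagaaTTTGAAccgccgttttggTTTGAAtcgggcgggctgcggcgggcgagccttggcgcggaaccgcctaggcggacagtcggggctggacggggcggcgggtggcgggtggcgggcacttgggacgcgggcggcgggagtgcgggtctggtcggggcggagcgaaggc
Top2a promoter: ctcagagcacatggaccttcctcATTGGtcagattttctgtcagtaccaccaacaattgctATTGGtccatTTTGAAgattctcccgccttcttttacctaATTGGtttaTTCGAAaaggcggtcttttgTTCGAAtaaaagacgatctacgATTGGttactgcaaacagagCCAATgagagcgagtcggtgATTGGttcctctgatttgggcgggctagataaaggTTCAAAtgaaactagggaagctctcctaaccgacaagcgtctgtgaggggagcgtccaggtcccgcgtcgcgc
CCAAT matched 3 times in the Mki67 window and 6 times in the Top2a window, while 3.37% of 32851 RefSeq promoters of this length held at least 3 matches and 0.271% at least 5. TTTGAA matched 2 times in each window, as in 2.31% of promoters with at least 2. TTCGAA, which reads the same on both strands, matched 2 times in the Top2a window and 0 times in the Mki67 window, and 0.0304% of promoters held at least 2 matches. No marked match overlapped another, and a match is a description of letters, not of binding.

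The panel held 258 genes in the tables used here, against 265 in the series design, and 27 blank codes that match no gene and measure false decoding. Of 47 cell cycle candidates it measured 5: Mki67, Top2a, Ccnd1, Ccnd2 and Cdkn1c. No further gene of DNA synthesis or mitosis was measured, so the name "cycling" rests on the 2 genes of the rule. The 3 sections held 71492483, 60759690 and 78051090 panel transcripts in 663145, 513963 and 786165 cells, and no cell identifier was shared between sections. Over the kept cells Mki67 stood 16.6, 8.22 and 12.8 times above the highest blank in tumours 1, 2 and 3, and Top2a 5.93, 3.802 and 4.63 times. The same rule applied to the 2 highest blanks, at least 3 of each, found 2, 0 and 0 cells.

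The counts that chose the cells are given as a description. Positive cells held a median of 6, 6 and 5 Mki67 transcripts in tumours 1, 2 and 3, with a 95th percentile of 15, 16 and 13. Their median Top2a counts were 4, 4 and 3, with a 95th percentile of 7, 9 and 6. Many cells sat on the threshold: 51.0%, 43.1% and 60.9% of them had exactly 3 of either gene. These cells averaged 6.13, 5.57 and 5.38 Mki67 transcripts and 3.22, 3.301 and 3.18 Top2a transcripts. Just outside were 15663, 5346 and 10337 cells whose lower count was 2, with averages of 4.69, 4.11 and 3.96 Mki67 and 2.22, 2.27 and 2.18 Top2a transcripts. Most Top2a-rich cells were also Mki67-rich, but not the reverse. Of cells with at least 3 Top2a transcripts, 73.1%, 72.2% and 65.5% also had at least 3 of Mki67, whereas 20.5%, 26.8% and 13.4% of cells with at least 3 Mki67 transcripts reached 3 of Top2a. Positive cells carried 18.6%, 21.7% and 9.44% of all Mki67 transcripts of the kept cells and 29.7%, 29.4% and 16.0% of all Top2a transcripts.

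Positive cells made up 2.25% of the kept cells in tumour 1 (95% exact binomial interval 2.22 to 2.29), 1.28% in tumour 2 (1.25 to 1.32) and 0.892% in tumour 3 (0.870 to 0.915), with a mean of 1.48% ± 0.70 (SD, n = 3). The intervals cover counting error only. Tumour 1 was highest and tumour 3 lowest, and no test was made between single tumours. Positive cells were deep cells, with medians of 204, 292 and 228 panel transcripts against 98, 106 and 94 in all kept cells, as a rule on raw counts brings with it. After each cell was thinned to 80 transcripts, leaving out 234291, 161097 and 277034 shallower cells, 0.497%, 0.151% and 0.127% still met the rule. The share with at least 1 transcript of each gene after thinning was 9.84%, 4.05% and 6.23%, which places tumour 3 above tumour 2. Inside the Pecam1 and Cdh5 gate described below, 1.56%, 1.25% and 0.465% of cells met the rule, and 0.0889%, 0.121% and 0.0398% after thinning. Inside the gate of basal keratins these shares were 4.61%, 2.65% and 1.86%, and 0.450%, 0.1099% and 0.131% after thinning.

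Positive cells were unevenly spread over each section. In square tiles of 250 µm with at least 100 kept cells, the median share was 1.89% in the 804 tiles of tumour 1, 0.634% in the 1133 tiles of tumour 2 and 0.417% in the 1223 tiles of tumour 3. The 90th percentile was 4.31%, 2.78% and 2.002%, and the highest tile reached 9.55%, 11.97% and 6.06%. Tiles without any positive cell made up 2.74%, 24.6% and 33.0%. The tiles with the highest shares that together held 50% of the positive cells contained 27.1%, 14.6% and 17.6% of the kept cells. Empty tiles are more likely where the overall share is lower. The mean squared deviation of the tile counts over that of a binomial with 1 share per section was 7.52, 8.18 and 5.39, and over that expected from the totals of the cells in each tile 3.65, 4.02 and 5.59, so the order of the tumours depends on the measure.

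**Figure D1:**
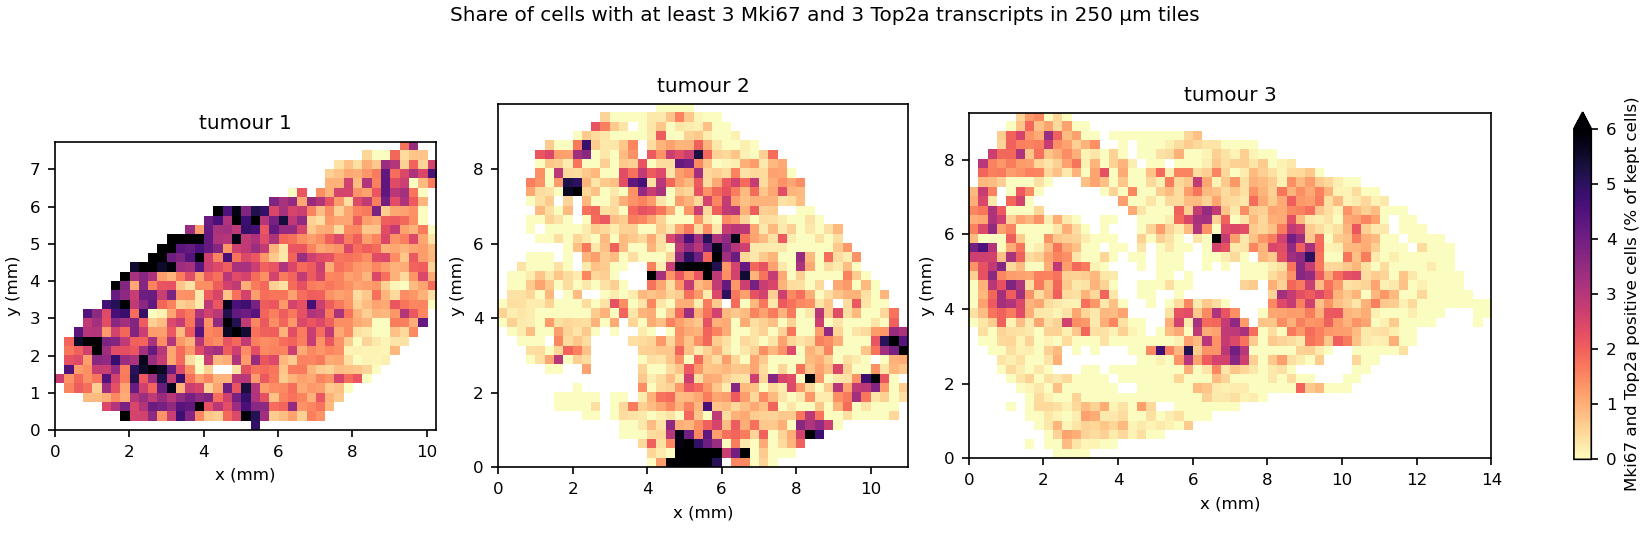
Share of kept cells with at least 3 Mki67 and 3 Top2a transcripts in 250 µm tiles of the 3 sections, with x and y in mm from the lowest tile and white where a tile held under 100 kept cells; the colour scale ends at 6%. Median tile shares are 1.89%, 0.634% and 0.417%, and the darkest tiles are unevenly placed in each section.

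To find what else set positive cells apart, each was paired with a cell of the same section that had 0 Mki67 and 0 Top2a transcripts and the same total of panel transcripts (matched cells). Pairs of exactly equal total made up 99.2%, 97.7% and 99.8%. Levels are transcripts per 1000 panel transcripts without Mki67 and Top2a, given for tumours 1, 2 and 3 in that order. They are not compared between genes, since probes per gene may differ and their number was not used here. Of 256 genes tested in edgeR with the tumour as a block, 103 passed (40.2%), of which 45 were higher in positive cells (17.6% of genes tested) and 58 lower (22.7%). Of the 132 genes above the highest blank in every section, 38 were higher (28.8%) and 27 lower (20.5%). Over the 256 genes the log2 fold changes had a median of -0.10, and over the 132 one of 0.02. In 67 genes (26.2%) the tumour values of positive and matched cells did not overlap. Values below are mean ± SD over the 3 tumours (n = 3), and fold changes are log2 ± SE with edgeR adjusted p.

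Ccnd1 encodes cyclin D1, the cyclin that drives cells through G1. Its level was 31.2, 32.8 and 26.7 in positive cells against 8.19, 13.6 and 11.9 in matched cells. Every positive value lay above every matched value, at 30.2 ± 3.2 against 11.2 ± 2.7 (log2 fold change 1.44 ± 0.17, adjusted p = 0.00213). The other measured cell cycle genes did not pass. Ccnd2, a further D-type cyclin, stood at 0.384 ± 0.056 against 0.580 ± 0.235 (-0.54 ± 0.21, adjusted p = 0.0819), and Cdkn1c, which encodes the cyclin-dependent kinase inhibitor p57, at 1.87 ± 0.46 against 1.75 ± 0.68 (0.14 ± 0.20, adjusted p = 0.569). Ccnd2 lay near the highest blanks of positive cells (0.457, 0.360 and 0.310), so the size of its step is uncertain. It passed in edgeR without tumour 3 (-0.81, adjusted p = 0.0103) and in cells of at least 40 counts (-0.52, adjusted p = 0.0490). In the main fit 1 of the 3 tested genes of this list was thus higher and 0 lower.

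Receptors and feedback regulators of the Wnt pathway were among the higher genes. Wnt ligands bind Frizzled receptors and the co-receptors LRP5 and LRP6, and RNF43 and ZNRF3 are ubiquitin ligases that remove Frizzled from the surface and are themselves induced by the pathway. Of 28 measured Wnt genes, the longest list, 10 were higher and 2 lower, beside 17.6% and 22.7% of all genes tested, with a median log2 fold change of 0.31 against -0.10 over all genes tested. Among the receptors, Lrp5 stood at 43.4, 36.7 and 35.2 in positive cells against 19.1, 18.5 and 17.4 in matched cells. The 3 tumours gave nearly the same step, with a log2 fold change of 1.05 ± 0.11 (adjusted p = 0.00143). Its partner Lrp6 gave 0.65 ± 0.12, and Fzd2 stood at 8.19, 8.205 and 11.3 against 5.096, 4.73 and 5.45 (0.83 ± 0.13, adjusted p = 0.00402). Neither Lrp6 nor Fzd2 overlapped between the arms.

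The feedback ligase gene Rnf43 was at 4.21, 3.965 and 5.61 in positive cells against 2.11, 2.11 and 2.25 in matched cells (1.06 ± 0.14, adjusted p = 0.00244). Znrf3 was at 1.23, 0.908 and 1.06 against 0.476, 0.388 and 0.388 (1.34 ± 0.16, adjusted p = 0.00213). Neither gene overlapped between the arms. In matched cells Znrf3 stood at or below the highest blank of the same sums (0.602, 0.519 and 0.388), so its level there is not above false decoding and the size of its fold is uncertain. Wif1 encodes a secreted inhibitor that binds Wnt ligands, and its level varied between tumours, at 3.09, 0.888 and 1.955 in positive cells against 1.504, 0.459 and 0.456 in matched cells. It rose in each tumour, although the arms overlap across tumours (1.34 ± 0.24, adjusted p = 0.00661). In matched cells of tumour 2 it was below the highest blank, so its fold there is uncertain. Axin2, a widely used Wnt target, gave 0.52 ± 0.23 (adjusted p = 0.106) and did not pass.

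Among the nuclear factors of the pathway, Tcf7l1, which mostly represses Wnt targets, was at 2.195, 1.21 and 1.41 against 1.27, 0.750 and 0.684 (0.83 ± 0.16, adjusted p = 0.00821). Tcf7l2 gave 0.435 ± 0.120, and Sfrp1, a secreted Wnt antagonist, 0.445 ± 0.133. Tcf7, not above background, was also called higher. The 2 lower Wnt genes were Dkk3 and Sfrp4, of which Sfrp4 was not above background. Dkk3, a secreted relative of the Dickkopf inhibitors, was at 0.969, 0.531 and 1.59 against 2.91, 1.79 and 1.87 (-1.21 ± 0.29, adjusted p = 0.0173). In a fit of the 27 blanks beside the genes, 4 blanks were called higher and 1 lower, against 45 and 58 of 256 genes (17.6% and 22.7%). Blanks were thus called higher nearly as often as genes, so a higher call alone does not set a gene apart from false decoding. The blanks had log2 fold changes from -0.42 to 0.49, so the steps of Tcf7l2 and Sfrp1 are within the range of the blanks.

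Of 4 Hippo pathway genes 3 were higher, beside 17.6% of all genes tested. Wwc1 encodes the scaffold KIBRA, which activates the LATS kinases, and stood at 48.1, 47.6 and 56.2 in positive cells against 22.3, 24.3 and 28.7 in matched cells (1.002 ± 0.107, adjusted p = 0.00143). The arms are far apart, with the lowest positive value above the highest matched one. Tead2 (0.43 ± 0.12) and Tead3 (0.45 ± 0.12), DNA-binding partners of YAP, passed with steps inside the range of the blanks. In the list of TGF-beta and BMP genes 2 of 12 were higher, Id2 and the co-receptor gene Tgfbr3 (0.66 ± 0.14), and 2 lower. Over all genes tested 17.6% were higher and 22.7% lower, so this list did not stand out by its counts. Id2, an inhibitor of differentiation that blocks basic helix-loop-helix factors, was at 23.3, 21.5 and 18.6 against 10.7, 11.2 and 8.12 (1.07 ± 0.11, adjusted p = 0.00143). It did not overlap between the arms.

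Of 11 Notch genes 4 were higher and 2 lower, beside 17.6% and 22.7% of all genes tested. Hey1, a target of the pathway that encodes a transcriptional repressor, was at 3.01, 3.965 and 1.59 in positive cells against 1.29, 2.896 and 0.978 in matched cells (0.78 ± 0.19, adjusted p = 0.0173). It was higher within each tumour with overlap across them. Hes1, a target of the same kind, gave 0.67 ± 0.16, Rbpj, the DNA-binding partner of Notch, 0.57 ± 0.18, and the receptor gene Notch2 0.44 ± 0.12, a step inside the range of the blanks. The ligand genes Dll1 (-0.66 ± 0.19) and Jag2 (-0.59 ± 0.16) were lower. Notch1 (0.31, adjusted p = 0.0745) and Notch3 (0.19, adjusted p = 0.216) did not pass.

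Outside these pathways, Irf3, a transcription factor of antiviral sensing, was at 2.33, 2.004 and 1.52 against 1.13, 1.13 and 0.832 (0.90 ± 0.16, adjusted p = 0.00639). Arg1, which encodes the arginine-splitting enzyme arginase 1, was at 6.825, 4.49 and 2.43 against 3.23, 2.14 and 2.13 (0.77 ± 0.23, adjusted p = 0.0358). Arg1 was higher in each tumour, but without tumour 1 it gave 0.62 (adjusted p = 0.115) and without tumour 2 0.67 (adjusted p = 0.0967). It also did not pass when matched on volume (adjusted p = 0.0672), matched on the total without Mki67 and Top2a (0.0503) or at a threshold of 2 (0.0563). Hey1 likewise did not pass without tumour 1 (0.57, adjusted p = 0.166). Of 5 epithelial genes 2 were higher and 0 lower: Cdh1, encoding E-cadherin (0.64 ± 0.13), and the luminal regulator Gata3 (0.64 ± 0.11). The class I antigen gene H2-K1 was higher as well (0.63 ± 0.12). Of 10 interferon genes 2 were higher, the regulators Irf1 (0.54 ± 0.12) and Irf9 (0.52 ± 0.14), and 4 were lower, among them Irf7 (-0.50 ± 0.14) and Isg15 (-0.55 ± 0.15). Only 4 of these 10 genes were above background. Over all genes tested 17.6% were higher and 22.7% lower.

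Stromal and matrix genes were among the lower genes with the largest differences. Of 8 fibroblast genes 6 were lower and 0 higher, with a median of -1.14, and of 17 matrix genes 7 were lower and 0 higher, with a median of -0.56. Above background were 5 of the 8 and 12 of the 17, and 22.7% of all genes tested were lower and 17.6% higher. Col1a1, the main collagen I chain of fibroblasts, was at 27.8, 19.9 and 17.1 in positive cells against 112, 106 and 65.0 in matched cells (-2.13 ± 0.12, adjusted p = 0.000122). Postn, a matrix protein of activated fibroblasts, was at 3.91, 2.64 and 2.398 against 13.9, 9.67 and 4.33 (-1.54 ± 0.20, adjusted p = 0.00244). Pdgfrb, a receptor of pericytes and fibroblasts, was at 1.02, 0.713 and 0.534 against 2.95, 2.12 and 1.18 (-1.43 ± 0.165, adjusted p = 0.00201). All 3 genes were lower in positive cells without overlap. Lrrc15 (-1.06 ± 0.18) and Sparc (-0.84 ± 0.14) were lower in each tumour with overlap across tumours. Both endothelial genes, Pecam1 (-0.70 ± 0.20) and Cdh5 (-0.83 ± 0.19), were lower too, as were 2 of 3 pericyte, 2 of 6 macrophage and 2 of 3 antigen presenting genes. Only 1 of the 6 macrophage and 1 of the 3 antigen presenting genes were above background, so most of these 2 lists has little signal.

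Marker gates moved with these stromal genes. A cell was inside a gate with at least 3 transcripts and at least 2 genes of its markers. The Pecam1 and Cdh5 gate held 1.07%, 1.24% and 0.233% of positive cells against 4.76%, 3.40% and 1.18% of matched cells. The Pdgfrb and Rgs5 gate held 0.795%, 0.910% and 0.200% against 4.89%, 3.98% and 1.498%, and the Adgre1 and Cx3cr1 gate 0.666%, 0.635% and 0.083% against 1.96%, 1.20% and 0.166%. Matched cells were thus richer in cells with vascular, mural and macrophage markers in each tumour. The fibroblast list gate, with at least 5 transcripts, held 39.9%, 37.0% and 25.2% of positive cells against 46.6%, 39.8% and 26.2% of matched cells, and it is a loose gate that 20.1%, 20.7% and 13.1% of all kept cells met. The Krt5, Krt14 and Krt15 gate, which marks basal cells, held 13.1%, 7.08% and 8.95% against 12.6%, 6.83% and 5.26%.

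With both arms taken outside the 4 stromal and myeloid gates, a choice made after seeing the data, 13 genes were higher and 13 lower (5.08% each). Col1a1 (0.30 ± 0.14, adjusted p = 0.185), Pdgfrb (0.33 ± 0.14, adjusted p = 0.148), Sparc (0.21 ± 0.15) and Lrrc15 (0.12 ± 0.13) then turned sign and did not pass, and Postn gave -0.34 (adjusted p = 0.237). Fn1 (-0.88, adjusted p = 0.156), Tnc (-1.02, adjusted p = 0.0786), Dkk3 (-0.13, adjusted p = 0.651), Tcf7l1 (0.58, adjusted p = 0.107), Hey1 (0.54, adjusted p = 0.118) and Arg1 (0.52, adjusted p = 0.117) did not pass either, so 11 of the 23 called named genes were lost. Col1a1, Postn, Lrrc15 and Pdgfrb are themselves markers of the gates. Cells rich in them were removed from both arms, and the part of this in the loss of these genes was not tested. Ccnd1 (1.27 ± 0.15), Lrp5 (0.796 ± 0.102), Wwc1 (0.75 ± 0.09), Id2 (0.81 ± 0.13), Rnf43 (0.85 ± 0.18), Znrf3 (1.196 ± 0.177), Fzd2 (0.78 ± 0.15) and Irf3 (0.71 ± 0.18) stayed higher and past the threshold. Of the 103 genes called in all positive cells, 19 were also called here with 1 sign. They are 18.4% of the former and 73.1% of the 26 called here.

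Further matrix, keratin and stress genes were lower over all positive cells. Fn1, encoding fibronectin, was at 3.635, 1.76 and 6.098 in positive cells against 11.8, 5.77 and 22.2 in matched cells (-1.77 ± 0.13, adjusted p = 0.000424), a like step at very different levels. The matrix gene Tnc was at 2.47, 2.535 and 1.63 against 6.12, 6.59 and 6.57 (-1.58 ± 0.20, adjusted p = 0.00213). Krt17, a keratin of stressed and basal-type epithelium, was at 0.810, 0.544 and 1.904 against 1.24, 1.27 and 7.32 (-1.27 ± 0.27, adjusted p = 0.0123), with the highest values of both arms in tumour 3. Of 10 immediate early and stress genes 3 were lower and 1 higher, beside 22.7% and 17.6% of all genes tested. Klf4, which promotes epithelial differentiation and cell cycle exit, was at 0.697, 0.453 and 0.532 against 1.37, 0.919 and 1.28 (-1.099 ± 0.174, adjusted p = 0.00479). Fosb, an AP-1 subunit, gave -1.13 ± 0.29, with its level in positive cells of tumour 2 (0.360) at that of the highest blank, and Egr1, an early growth response factor, -0.69 ± 0.15, while the nuclear receptor gene Nr4a1 gave 0.59 ± 0.19.

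Of the 23 named genes called here, all but Arg1 and Hey1 also passed without each tumour in turn. Leaving out tumour 1 gave 19 higher and 40 lower genes in this comparison, leaving out tumour 2 gave 27 and 40, and without the tumour as a block 5 and 20 were called. Matching on cell volume besides the total gave 48 and 68.

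**Figure D2:**
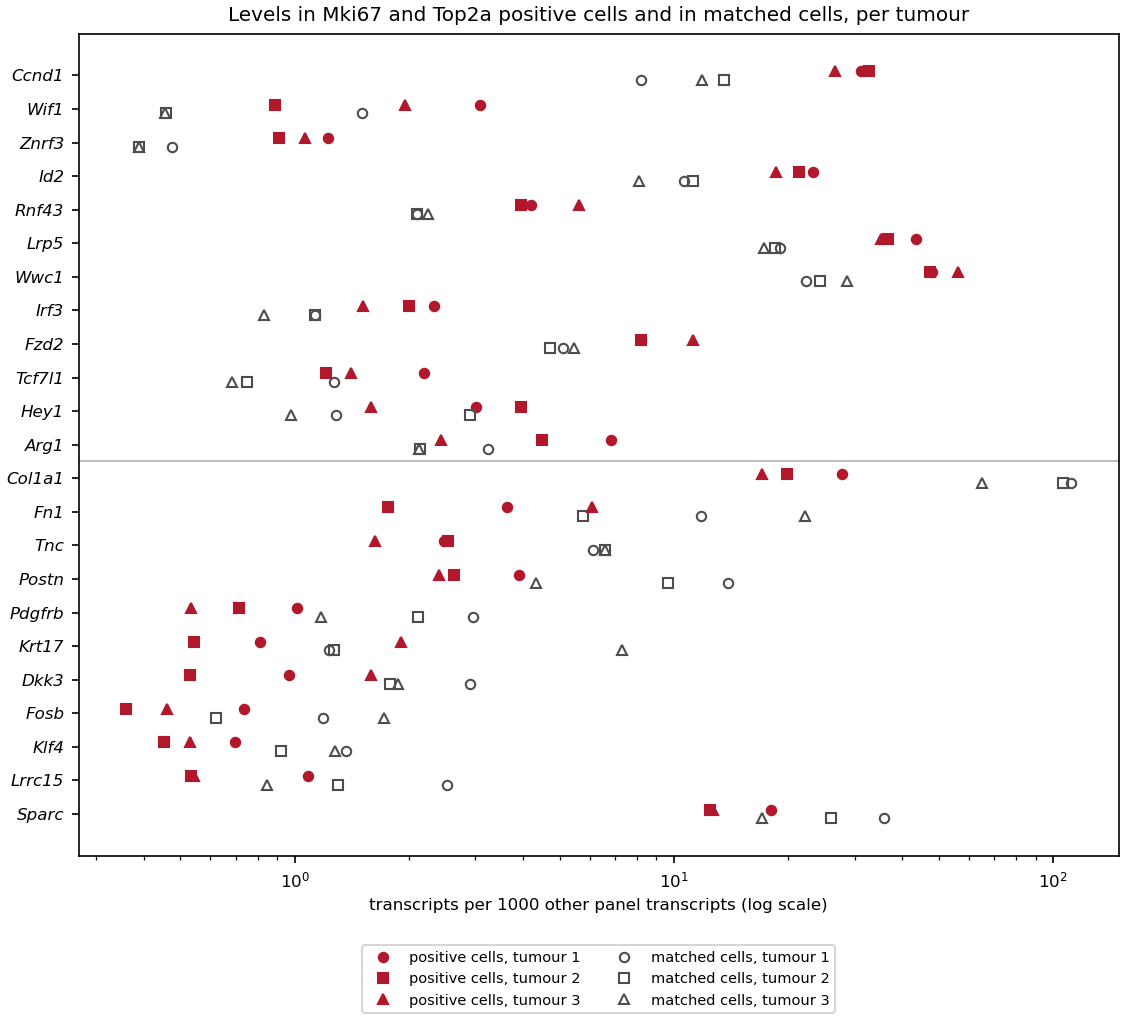
Levels of the 12 genes named as higher (above the line) and the 11 named as lower in positive and matched cells, in transcripts per 1000 other panel transcripts on a log axis, 1 symbol per tumour. Ccnd1 lies at 26.7 to 32.8 in positive and 8.19 to 13.6 in matched cells, and Col1a1 at 17.1 to 27.8 and 65.0 to 112.

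To hold cell type more nearly equal, both arms were then drawn from an epithelial gate: at least 3 transcripts of the epithelial list and 0 of 11 stromal and immune marker genes. It held 896, 421 and 759 positive cells, which are 6.41%, 7.23% and 12.6% of them, against 7.60%, 8.28% and 16.0% of all matched cells, with median totals of 145, 213 and 179. Of 244 genes tested 37 passed (15.2%), 12 higher (4.92%) and 25 lower (10.2%), and 41 did not overlap (16.8%). Among the 124 genes above background 10 were higher (8.06%) and 22 lower (17.7%). The higher genes repeated the Wnt receptor and feedback genes: of 27 Wnt genes 5 were higher (Fzd2, Lrp5, Rnf43, Wif1 and Znrf3) and 1 lower (Wnt7b). Ccnd1 stood at 26.2, 43.2 and 27.9 in positive cells against 8.74, 14.3 and 13.02 in matched cells (1.38 ± 0.18, adjusted p = 1.77e-07). Id2 was at 24.1, 21.3 and 20.7 against 13.6, 12.5 and 8.005 (0.94 ± 0.19, adjusted p = 0.000235). Mylk, myosin light chain kinase, was at 2.16, 1.88 and 1.47 against 0.838, 0.609 and 0.608 (1.37 ± 0.30, adjusted p = 0.000639), whereas over all positive cells it gave 0.67 ± 0.24 (adjusted p = 0.0595). None of these 3 genes overlapped between the arms.

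Immediate early genes were among the lower genes inside the gate. These genes respond within minutes to growth signals, stress and tissue handling. Of 10 measured, 7 were lower and 0 higher, beside 10.2% and 4.92% of all genes tested there. Their median was -0.85 against -0.03 over all genes tested there. Fosb was at 0.649, 0.364 and 0.784 in positive cells against 1.71, 1.73 and 1.899 in matched cells (-1.66 ± 0.31, adjusted p = 9.23e-05). Egr1 was at 6.08, 6.73 and 11.3 against 14.7, 12.4 and 29.6 (-1.23 ± 0.20, adjusted p = 8.65e-06). The remaining called members were Klf4 (-1.45 ± 0.30), Atf3 (-0.936 ± 0.285), Fos (-0.895 ± 0.244), Jun (-0.802 ± 0.161) and Junb (-0.64 ± 0.19), and Nr4a1 gave 0.47 ± 0.19 (adjusted p = 0.0840). Inside the gate the 27 blanks ran from -0.89 to 0.73, with 0 called. The steps of Jun and Junb lie within that range and that of Fos at its edge. Fosb, Egr1, Klf4, Jun and Junb did not overlap between the arms. In positive cells of tumour 2 Fosb, Klf4, Krt14 and Krt17 were below the highest blank of the gate (0.551), and so was Wif1, so the sizes of their folds are uncertain there. In matched cells Wif1 was below the highest blank in tumours 2 (0.420) and 3 (0.478), and Znrf3 in tumour 3.

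Of 17 matrix genes 4 were lower in the same gate and 0 higher, and of 6 basal keratin and fate genes 2 were lower and 0 higher, beside 10.2% of all genes called lower. Krt17 was at 0.533, 0.353 and 1.59 against 0.990, 2.069 and 9.63 (-2.08 ± 0.33, adjusted p = 7.16e-06), lower in each tumour and most of all in tumour 3. Tnc gave -1.52 ± 0.34, Fn1 -1.25 ± 0.35 and Thbs1, encoding thrombospondin 1, -0.99 ± 0.15. Fn1 fell in 2 of 3 tumours, from 22.97 to 3.37 in tumour 3 and from 5.13 to 2.32 in tumour 1, with 0.738 against 0.452 in tumour 2. The basal keratin gene Krt14 gave -1.18 ± 0.34 (adjusted p = 0.00999) and did not pass without tumour 2 (-0.63, adjusted p = 0.376) or without tumour 3 (-1.22, adjusted p = 0.0537). It was also lost when matched on volume (-0.53, adjusted p = 0.256) or on the total without Mki67 and Top2a (adjusted p = 0.0748), in cells of at least 40 counts (0.0533) and at thresholds of 2 (0.0552) and 5 (0.0596). Of 5 epithelial genes 2 were lower, the tight junction gene Cldn4 (-0.95 ± 0.19) and the luminal keratin gene Krt7 (-1.15 ± 0.32), while Cdh1 (0.34) and Gata3 (0.39) did not pass. The summed count of these same 5 genes admitted cells to the gate in both arms, so their values are only a description. Of the 103 genes called over all positive cells, 24 were called in the gate with 1 sign, which is 23.3% of the former and 64.9% of the 37 called in the gate. Without tumour 2, 10 were higher and 12 lower, and no gene passed in edgeR without the tumour as a block (0 calls, and 21 genes at p under 0.05 before adjustment). Tnc, Znrf3 and Rnf43 did not pass there without tumour 3 (-0.93, 1.07 and 0.85).

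**Figure D3:**
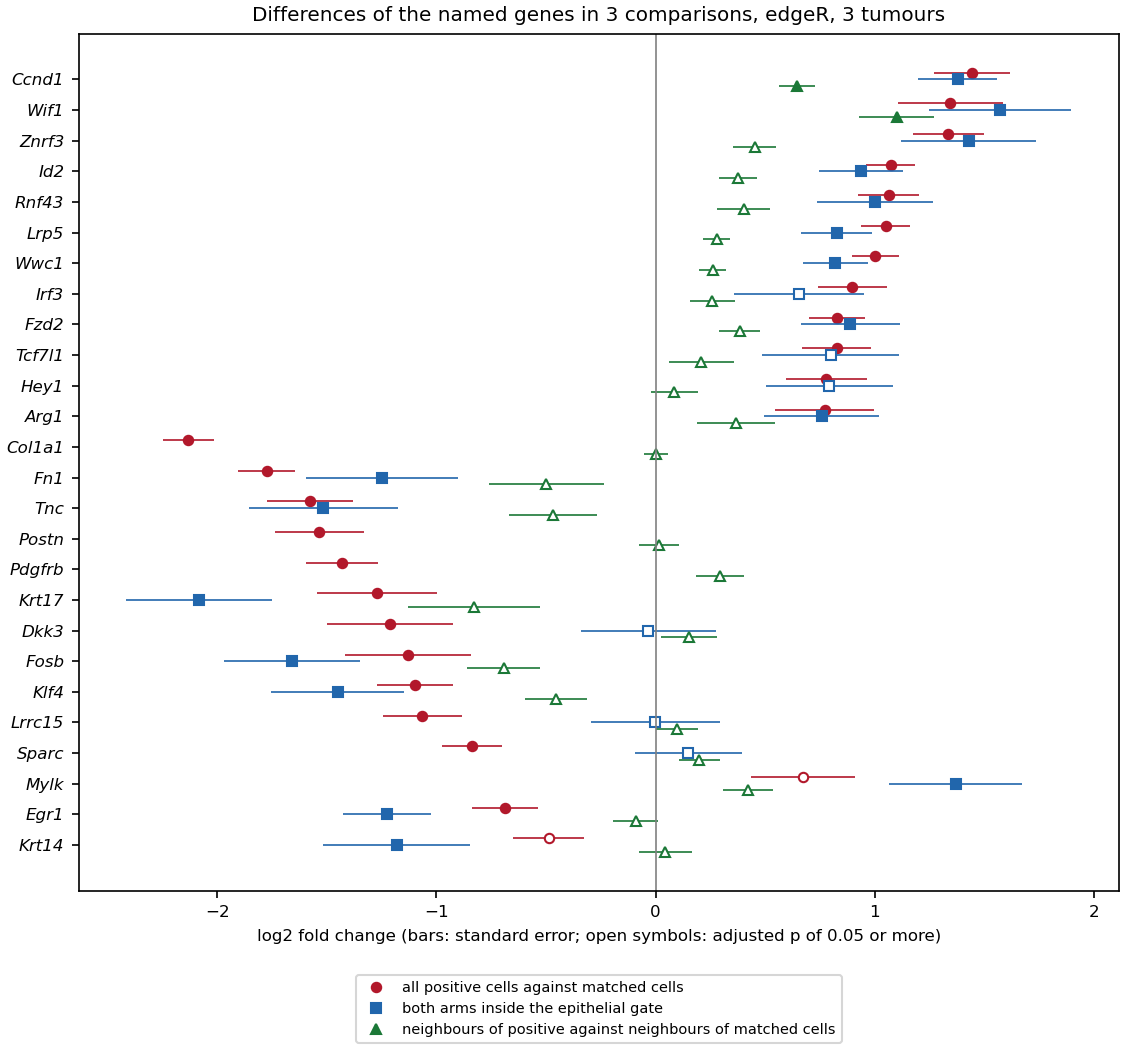
Log2 fold changes (bars are SE, edgeR, 3 tumours) of the named genes in all positive against matched cells, in the same inside the epithelial gate, and in neighbours of positive against neighbours of matched cells; filled symbols have an adjusted p under 0.05. Ccnd1 gives 1.44, 1.38 and 0.65, and Col1a1 and Sparc lie at 0.0017 and 0.20 in the neighbours.

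Cells rich in only 1 of the 2 genes were compared with positive cells of equal total, a comparison added after seeing the data. Cells with at least 3 Mki67 and 0 Top2a transcripts numbered 54336 in all, and 11747, 4139 and 5508 pairs could be formed. Positive cells had 43 genes higher (16.8%) and 32 lower (12.5%) than these, with small steps. Znrf3 was at 1.25, 0.965 and 1.11 in positive cells against 0.891, 0.654 and 0.637 (0.615 ± 0.068, adjusted p = 0.0126), without overlap. Rnf43 gave 0.365 ± 0.035, Wwc1 0.27 ± 0.04, Lrp5 0.23 ± 0.03, Id2 0.22 ± 0.03 and Ccnd1 0.20 ± 0.04. Jun was at 20.3, 20.1 and 22.9 in positive cells against 28.02, 26.9 and 30.2 in Mki67-rich cells without Top2a (-0.43 ± 0.03, adjusted p = 0.00607), and Fosb (-0.56 ± 0.09), Egr1 (-0.53 ± 0.04), Klf4 (-0.44 ± 0.06) and Fos (-0.41 ± 0.04) were lower as well. Except for Jun (-0.39, adjusted p = 0.0578) and Fos (-0.39, adjusted p = 0.0894), these genes were also called against cells with neither transcript, with the same sign and steps further from 0. Both comparisons share their positive cells. Blanks were not fitted against cells rich in only 1 of the 2 genes. Against matched cells the blanks ran from -0.42 to 0.49, a range that holds the steps given here for Rnf43, Wwc1, Lrp5, Id2, Ccnd1 and Fos. That cells with both transcripts can lie deeper in the cycle than cells with Mki67 alone is background, and no phase was called here.

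Cells with at least 3 Top2a and 0 Mki67 transcripts were rare, at 2643 in all, and gave 1128, 541 and 720 pairs. Positive cells had 0 genes higher (0.0%) and 3 lower (1.18%) than these in edgeR, while 52 of 255 genes had an unadjusted p below 0.05. The 3 were Fn1 (-0.81 ± 0.12), Egr1 (-0.77 ± 0.12) and the basement membrane collagen gene Col4a1 (-0.695 ± 0.124). Ccnd1 gave 0.26 ± 0.12 (adjusted p = 0.257), Lrp5 0.43 ± 0.11 (adjusted p = 0.0813) and Id2 0.49 ± 0.11 (adjusted p = 0.0718). The sums here held 114090 to 165490 panel transcripts per arm, against at least 1449123 in the comparison with matched cells.

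Positive cells were split by the summed count of Mki67 and Top2a, the counts that also chose them, at sums of 6 to 8, 9 to 12 and 13 or more, each set against its own matched cells of equal total. In tumour 1 the classes held 4255, 5171 and 4543 cells, in tumour 2 1651, 1984 and 2188, and in tumour 3 2588, 2202 and 1218. Their median totals rose too, in tumour 2 from 229 to 354 and in tumour 3 from 205 to 273.5, and the part of depth in what follows was not tested. The mean log2 ratio of Lrp5 was 0.89 ± 0.10, 1.03 ± 0.07 and 1.25 ± 0.15 (SD, n = 3) over the 3 classes, that of Id2 0.89 ± 0.15, 1.02 ± 0.14 and 1.32 ± 0.24, and that of Wwc1 0.89 ± 0.14, 0.97 ± 0.08 and 1.15 ± 0.06. Col1a1 went from -1.68 ± 0.11 to -2.04 ± 0.26 and -2.53 ± 0.24. Ccnd1 moved little, at 1.38 ± 0.34, 1.398 ± 0.405 and 1.57 ± 0.45, which is within its spread between tumours. Among the 12 named higher genes the mean grew at each step in 12, and in 10 the last class exceeded the first in 3 of 3 tumours; among the 11 named lower genes these counts were 9 and 7. Fosb and Klf4 were not further from 0 at each step. This is a description without a test, over genes named for their difference between the same arms.

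**Figure D4:**
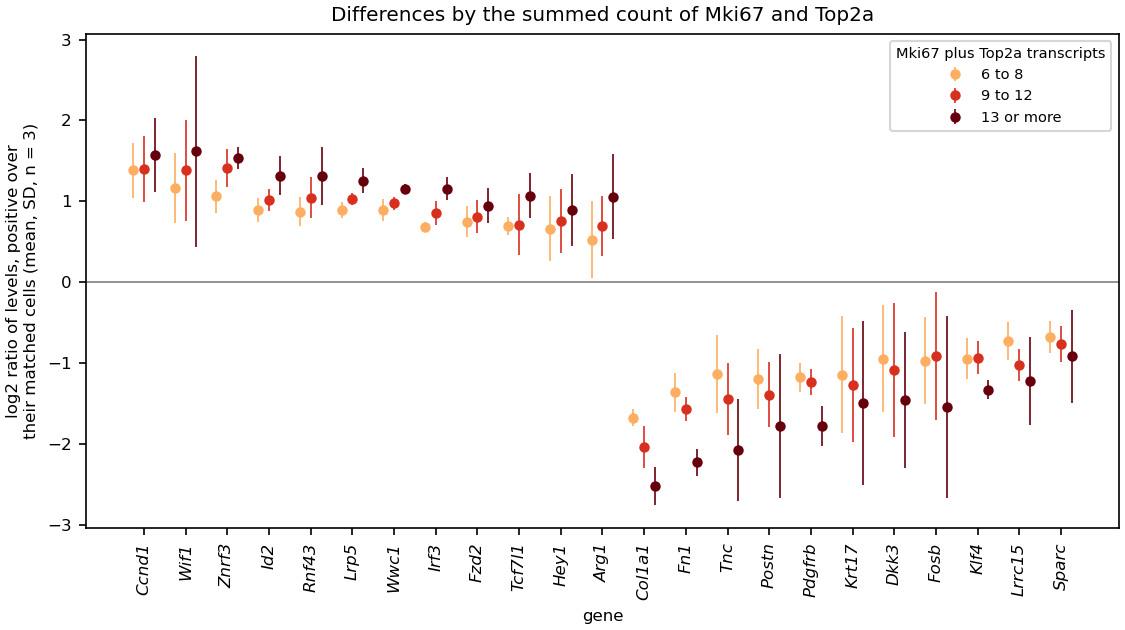
Log2 ratio of levels in positive over their own matched cells (mean and SD over 3 tumours) for the 23 named genes, split by the summed Mki67 and Top2a count of the cell. Lrp5 goes from 0.89 to 1.25 and Col1a1 from -1.68 to -2.53 between the lowest and the highest class.

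Positive cells were larger than matched cells of the same transcript total. Their median volume was 987, 1091 and 1069 µm3 against 807, 1039 and 869 µm3, larger in 3 of 3 tumours and least so in tumour 2 (log2 ratio 0.22 ± 0.13, SD, n = 3). The exact sign-flip permutation test, two-sided, gave p = 0.25, the smallest value that 3 tumours allow, and the same limit holds for the tests below. All kept cells had medians of 556, 672 and 622 µm3. The ratio of perimeter to area of positive cells was lower than that of matched cells in 3 of 3 tumours, at 0.399, 0.374 and 0.382 against 0.441, 0.383 and 0.421 (exact permutation p = 0.25). Their anisotropy was 1.31, 1.25 and 1.297 against 1.34, 1.26 and 1.29, lower in 2 of 3 tumours.

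Positive cells lay near other positive cells more often than matched cells did. In a ring from 25 to 50 µm around a cell, positive cells made up 3.56%, 4.51% and 2.24% of kept cells around positive cells. Around matched cells they made up 2.32%, 1.700% and 0.886%. The share was higher in each tumour, by a factor of 1.54, 2.65 and 2.53 (log2 ratio 1.12 ± 0.44, SD, n = 3, exact permutation p = 0.25). From 15 to 25 µm the factors were 2.002, 3.49 and 3.29, and from 50 to 100 µm they were 1.301, 2.08 and 1.89, so the gap narrowed with distance in all 3 sections. The shares around matched cells changed little with distance.

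**Figure D5:**
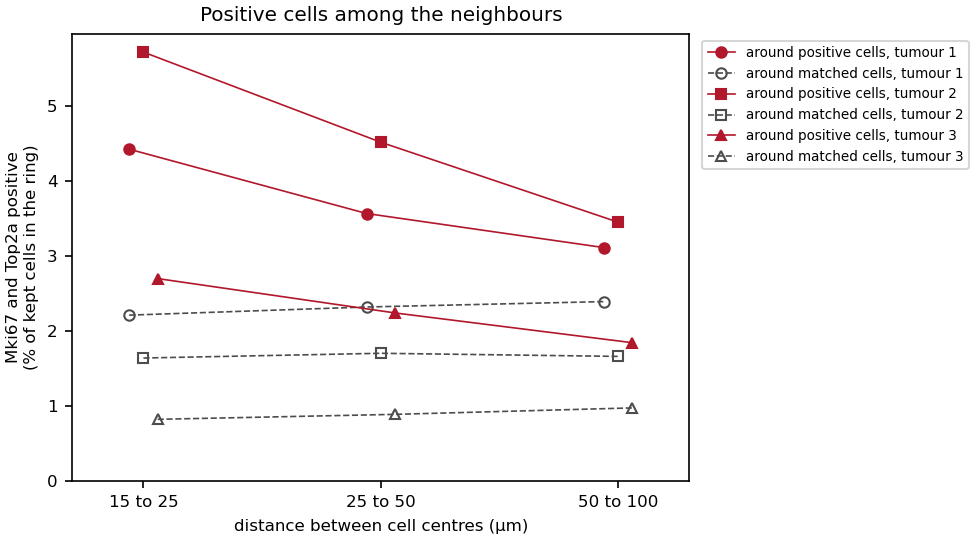
Percentage of kept cells that are positive in rings of 15 to 25, 25 to 50 and 50 to 100 µm around positive cells (filled, solid lines) and matched cells (open, dashed lines), 1 line per tumour. Around positive cells it falls from 4.42% to 3.11% in tumour 1, from 5.71% to 3.45% in tumour 2 and from 2.696% to 1.84% in tumour 3.

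Positive cells also lay slightly nearer to vascular and mural cells. The median distance to the nearest cell of the Pecam1 and Cdh5 gate was 34.3, 45.5 and 63.5 µm for positive cells against 37.7, 51.2 and 77.2 µm for matched cells. The difference was -7.61 ± 5.37 µm (SD, n = 3, exact permutation p = 0.25), shorter in 3 of 3 tumours, and -4.58 µm without tumour 3. To the Pdgfrb and Rgs5 gate it was 43.0, 57.1 and 64.4 µm against 45.8, 60.4 and 82.9 µm, a difference of -8.18 ± 8.90 µm that was -3.05 µm without tumour 3. Matched cells belonged to these gates more often, as given above, and a cell inside a gate was measured to the nearest other cell of that gate; the part of this in the distances was not tested. Distances to the fibroblast list gate and to the Adgre1 and Cx3cr1 gate went both ways, with differences of 0.0942, -1.801 and -2.04 µm and of 1.82, -5.89 and -2.95 µm.

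The surroundings of positive cells were somewhat denser, with a median of 109, 72 and 95 kept cells within 50 µm against 108, 62 and 86. Distances to the outline left out cells within 150 µm of the limit of the imaged area and cells off the larger tissue pieces. This left 13960, 5650 and 5948 positive and 13948, 5786 and 5953 matched cells. Of these, 5.81%, 2.88% and 1.43% of positive cells lay within 150 µm of the outline, against 7.18%, 4.01% and 3.23% of matched cells. The share was lower in each tumour (exact permutation p = 0.25). In tumour 2 more positive than matched cells were left out, and the part of this in the difference was not tested. The median distance to the outline itself went both ways: 952, 1455 and 1467 µm against 978, 1518 and 1226 µm. It was shorter in tumours 1 and 2 and longer in tumour 3.

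The cells around positive cells were examined in the same way, asking whether the cells beside them differ too. Cells with 0 Mki67 and 0 Top2a transcripts within 25 µm of a positive cell numbered 107053, 35774 and 44902, and were set against 103428, 45784 and 58207 such cells beside a matched cell and away from any positive cell. Of 256 genes 2 were higher (0.781%) and 1 lower (0.391%), 3 in all (1.17%), while 14 did not overlap between the arms (5.47%). Of the 132 genes above background 2 were higher (1.52%) and 0 lower (0.0%). Ccnd1 was at 11.7, 16.9 and 18.1 beside positive cells against 7.87, 12.2 and 10.4 beside matched cells (0.65 ± 0.08, adjusted p = 0.0340). Wif1 was at 2.27, 1.06 and 1.33 against 1.525, 0.482 and 0.471 (1.099 ± 0.172, adjusted p = 0.0400). Both were higher in each tumour with overlap across tumours, and beside matched cells of tumour 2 Wif1 was below the highest blank (0.661). The lower gene was the macrophage scavenger receptor gene Cd163 (-0.51 ± 0.07, adjusted p = 0.0371), which was not above background and is named after its value was seen. Lrp5 (0.28), Id2 (0.38), Wwc1 (0.26), Znrf3 (0.45) and Fzd2 (0.38) did not pass, each at an adjusted p of 0.0939. The neighbours' median totals were 85, 110 and 90 against 86, 114 and 106 transcripts, and the part of depth in the result was not tested. The calls rest on the setting. In edgeR, Wif1 did not pass with matched cells drawn with seed 2 (adjusted p = 0.0982) or in cells of at least 40 counts (adjusted p = 0.0596). Leaving out tumour 2 or tumour 3 left 0 calls in edgeR (29 and 71 genes had p below 0.05 before adjustment), leaving out tumour 1 gave 14 higher and 17 lower genes, and DESeq2 called 32 and 25.

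Over 250 µm tiles the genes whose level most resembled that of Mki67 plus Top2a were Ccnd1, Lrp5, Id2, Irf3 and Cdh1, by the mean Pearson correlation over the 3 sections. Ccnd1 gave r = 0.79, 0.63 and 0.67 over 804, 1133 and 1223 tiles. Lrp5 gave 0.36, 0.501 and 0.71, Id2 0.38, 0.39 and 0.63, Irf3 0.51, 0.35 and 0.41, and Cdh1 0.42, 0.32 and 0.47. Tiles share their section, their depth and their mix of cells, so these are descriptions without a test. Mki67 plus Top2a also chose the positive cells, so genes higher in those cells can rank high here by construction. Among others of them, Fzd2 ranked 9 with -0.056, 0.48 and 0.66, and Wwc1 ranked 11 with -0.064, 0.38 and 0.56, both near 0 in tumour 1. Hey1 did not rank high, at rank 149 with 0.055, -0.039 and -0.17.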

How the data were processed

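Transcripts were imaged in 1 section of each of 3 tumours. The authors deposited a cell-by-gene matrix of raw transcript counts for each section, per the file headers, and a table with other measures of each cell (volume, shape, centre), for which µm and µm3 were assumed, since the headers name no unit. The submitters' processing notes name Scanpy 1.9.3 with no role, and how cells were segmented was not stated there. The members and lists were chosen with earlier results of these data known.

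Each positive cell was matched 1 to 1, without replacement (seed 1), on the total of panel counts. Counts were summed per tumour and arm (6 sums), without Mki67 and Top2a, and compared with edgeR 4.0.16 under R 4.3.3 (limma 3.58.1): filterByExpr, TMM, quasi-likelihood F-test, two-sided, Benjamini-Hochberg over the genes tested, threshold 0.05. The tumour was a block, since both arms come from the same section. DESeq2 1.42.0 was an alternative. Positions used Python 3.11.15, numpy 2.4.6 and scipy 1.17.1. On simulated counts for the comparison with matched cells (256 genes), 96.7% of genes changed by a log2 of 1 and 36.7% of those changed by 0.5 were called, and 2.04% of unchanged genes. The simulation gave every gene the same dispersion (0.0238), so these rates need not hold for the measured counts. In the measured counts of that comparison 4 of 27 blanks were called higher and 1 lower.

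Named genes were above the highest blank in all 3 sections, past the threshold and of 1 sign in all 3 tumours: the 12 largest changes in each direction (6 in the epithelial gate and the neighbours), with all cell cycle genes; 1 of the 12 lower genes is not reported here. Genes named only as called members of a list were chosen after their values were seen. No doublet caller was run. The comparisons with cells rich in 1 of the genes, and outside the gates, were chosen after seeing the data. The tissue was outlined on a 25 µm grid. Alternatives are in the closing section.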

Additional observations from a re-analysis of the deposited data

How the results depend on the processing

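The counts below moved by over 1.5 times; under the alternatives not named they moved less. Of the 23 called genes named for all positive cells, 13 did not pass without the replicate block, 11 outside the gates, 22 against Top2a-rich cells without Mki67 and 3 against Mki67-rich cells without Top2a. All 23 kept their sign and call in DESeq2 and with library size alone. Of the 12 named in the epithelial gate, 12 did not pass without the replicate block. The 103 genes called over all positive cells became 25 without the replicate block, 59 to 139 without 1 tumour, 26 outside the stromal and myeloid gates and 3 against Top2a-rich cells without Mki67. The 37 of the epithelial gate became 0 without the replicate block, 21 with at least 5 transcripts of each gene, 21 when matched on the total without Mki67 and Top2a, and 22 to 32 without 1 tumour. The 3 of the neighbours became 57 in DESeq2, 0 to 31 without 1 tumour, and 0 in edgeR with at least 2 of each gene (68 at an unadjusted p under 0.05), at least 5 (39), library size alone (60), no replicate block (4) and a radius of 15 µm (57). The share of positive cells became 3.22% at a threshold of 2 and 0.367% at 5.

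Signs turned outside the gates for Col1a1 (0.30), Pdgfrb (0.33), Lrrc15 (0.12), Sparc (0.21) and Cdkn1c (-0.0061). Of these, Col1a1, Pdgfrb and Lrrc15 are markers of the gates. Cdkn1c also gave -0.24 against Mki67-rich cells without Top2a and -0.062 to 0.42 without 1 tumour, the lowest without tumour 3, and Ccnd2 0.056 against Top2a-rich cells without Mki67. The difference in distance to the Adgre1 and Cx3cr1 gate was 4.14 µm at a threshold of 5, and that to the outline -44.8 to 108 µm without 1 tumour, the lowest without tumour 3. The causes of these changes were not tested. With 3 tumours, single values cannot pass an exact test, and genes near the blanks have little signal.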

Other observations

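Lists not described above are given as counts over all positive cells against matched cells, beside 17.6% of genes tested called higher and 22.7% lower. Of 19 NF-kB and inflammatory genes 1 was higher, the subunit gene Nfkb1 (0.53 ± 0.13), and 2 lower, the chemokine genes Ccl2 and Ccl5, neither above background. Of 18 T or NK cell genes 3 were higher and 4 lower, with 1 of the 18 above background. Of 8 genes of the epithelial-mesenchymal transition list 1 was higher (Foxc2) and 3 lower (Prrx1, Twist1 and Zeb2), with 1 of the 8 above background. Of 6 basal keratin and fate genes Krt17 alone was called, while Krt5 gave -0.35 (adjusted p = 0.106) and Trp63 0.21 (adjusted p = 0.325). Of 5 progenitor genes the hyaluronan receptor gene Cd44 was higher, and Klf4 and Aldh1a3, the latter not above background, were lower.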
